A study of Mus musculus with 8 samples.

Results

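The genes described here are 10 heat shock proteins and co-chaperones, chosen by name: Hspa1a, Hspa1b, Hspa8, Hsph1, Dnajb1, Dnajb4, Hsp90aa1, Hspb1, Hspd1 and Hspe1. They were chosen with earlier results of these data known. All probe sets that the platform annotation gives 1 of these symbols were taken, 25 of the 45037 probe sets tested on the arrays, for 10 genes out of 18193 genes with a probe set in all. Each gene is given by its brightest probe set on average (its main probe set) unless another is named. Levels were measured on 8 Affymetrix arrays of sorted mouse CD4+ T cells. The cells came from mice in which a Foxp3 allele carried an enhanced green fluorescent protein (EGFP) reporter, and the allele was either the wild type (WT) or a mutant called delta. Foxp3 is the X-linked transcription factor that specifies regulatory T cells, and the design text describes the mice that gave the EGFP+ cells as hemizygous males. Cells were sorted on EGFP, so that all groups share the CD4+ sort and a tagged allele. The groups were arrays labelled delta EGFP+ (n = 3), WT EGFP+ (n = 3), delta EGFP- (n = 1) and WT EGFP- (n = 1). No source used here gives age, strain background, animals per array or whether replicates came from separate mice, so p-values measure only the spread between these arrays.

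Heat shock proteins are chaperones, which bind unfolded or partly folded proteins and keep them from aggregating. HSP70 proteins bind and release clients in an ATP-driven cycle. J-domain proteins such as Dnajb1 and Dnajb4 deliver clients and start ATP hydrolysis, and Hsph1, an HSP110 protein, exchanges the nucleotide. HSP90 finishes the folding of signalling proteins, small heat shock proteins hold unfolded clients, and Hspd1 with its lid Hspe1 forms the folding chamber of the mitochondrial matrix. Some members, above all Hspa1a and Hspa1b, are nearly silent until heat shock factors bind heat shock elements in their promoters, while Hspa8 and Hsp90aa1 are made in quantity in resting lymphocytes.

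Promoter windows from RefSeq (build GRCm38.p6), 250 bases before to 50 after a start site, were matched by symbol for 8 of the 10 genes, in 12 windows; Hspa8 and Hsp90aa1 had no match. They were searched for a pair of facing heat shock element units, GAANNTTC or TTCNNGAA, each of which reads the same on both strands and may overlap the other. A match stood in 8 of the 12 windows, against 15.1% of 32851 windows of the same length over all genes. These 8 windows belong to 7 genes, where 17.0% of all genes with a window had a match. The windows are not independent: those of Hsph1 share most of their bases, and further likenesses are given below. The windows of Hspa1b (chr17:34959189-34959488, minus strand), the second start of Dnajb4 (chr3:152193796-152194095, minus strand) and Hspe1 (chr1:55087898-55088197, plus strand) are shown because these genes, or the neighbour that shares the window, carry the differences described below. The sequences run 5′ to 3′ along the gene, with matches in capitals.
Hspa1b: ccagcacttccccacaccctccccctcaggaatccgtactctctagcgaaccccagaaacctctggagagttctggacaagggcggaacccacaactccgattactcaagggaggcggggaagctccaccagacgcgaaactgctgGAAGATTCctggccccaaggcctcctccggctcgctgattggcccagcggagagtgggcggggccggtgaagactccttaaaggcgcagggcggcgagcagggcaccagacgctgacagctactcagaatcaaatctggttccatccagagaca
Dnajb4: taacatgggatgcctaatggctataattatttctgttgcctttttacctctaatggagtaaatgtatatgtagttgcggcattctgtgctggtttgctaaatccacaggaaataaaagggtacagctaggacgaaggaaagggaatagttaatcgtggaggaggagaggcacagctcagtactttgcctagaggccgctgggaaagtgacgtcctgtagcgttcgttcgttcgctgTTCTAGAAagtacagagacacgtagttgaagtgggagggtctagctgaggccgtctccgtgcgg
Hspe1: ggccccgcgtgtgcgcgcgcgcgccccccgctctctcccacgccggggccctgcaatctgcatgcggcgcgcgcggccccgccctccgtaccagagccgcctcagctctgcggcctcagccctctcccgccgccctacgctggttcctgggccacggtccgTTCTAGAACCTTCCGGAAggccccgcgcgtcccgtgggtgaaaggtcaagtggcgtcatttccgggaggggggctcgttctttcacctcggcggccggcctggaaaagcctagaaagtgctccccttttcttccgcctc
The Hspa1b match GAAGATTC begins at -104 from the start, and the Hspa1a window, from the adjacent gene, holds the same match at the same place and differs from it at 4 of 300 bases. The Dnajb4 match begins at -14, whereas the window at the other Dnajb4 start holds none. In the Hspe1 window 3 matches overlap from -89 on. Overlapping matches that share a unit, and so hold 3 units in a row, stood in 4 of the 12 windows, of 3 genes and in part the same bases, against 0.603% of all windows. Hspd1 lies head to head with Hspe1, and 1 of its 2 windows shares 285 bases with the one printed. Hsph1 and Hspb1 windows also held matches, and neither Dnajb1 window did. A match describes letters in these windows and does not show binding.

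The arrays were checked before the members were compared. Median intensity lay between 53.3 and 54.7 on all 8 arrays, as RMA sets it, and the small number of arrays limits the precision. Foxp3 (1420765_a_at) read 11.10, 11.51 and 11.21 on the log2 scale on arrays labelled delta EGFP+, against 4.75, 4.86 and 4.64 on arrays labelled WT EGFP+, 6.14 on the delta EGFP- array and 4.52 on the WT EGFP- array. The WT EGFP+ readings go against that label, although where this probe set lies relative to the altered part of each tagged allele is not given, so every direction below rests on the labels as deposited. Cd3d, Cd3e, Cd3g and Cd4 were bright on all 8 arrays. Of 7 measured CD4 T cell markers, Cd28, Cd247 and Cd5 fell in delta EGFP+ cells (-0.66, -0.66 and -0.45, limma adjusted p = 0.031, 0.0081 and 0.025), where 6.02% of all genes were called lower. None of the B cell, myeloid, CD8, NK, or erythroid and platelet markers passed the test with all arrays. The 3 lower calls among CD4 T cell markers became 1, 2 and 1 without delta EGFP+ replicate 1, 2 and 3, and 1, 3 and 1 without WT EGFP+ replicate 1, 2 and 3. Without WT EGFP+ replicate 2, 2 B cell markers and 1 myeloid marker were lower, and without delta EGFP+ replicate 3, 1 CD8 marker was higher. Calls over all probe sets, 5734 with all arrays, were 3356, 3716 and 4623 without delta EGFP+ replicate 1, 2 and 3. They were 3355, 7556 and 3873 without WT EGFP+ replicate 1, 2 and 3. Cd8a read 8.498, 8.84 and 5.95 on delta EGFP+ arrays, against 6.36, 5.22 and 6.29 on WT EGFP+ arrays, 8.52 on the delta EGFP- and 6.28 on the WT EGFP- array (delta against WT EGFP+ 1.81, SE 0.71, adjusted p = 0.16). Delta EGFP+ replicates 1 and 2 and the delta EGFP- array were the high ones. The other CD8 marker, Cd8b1, differed by 0.05 (adjusted p = 0.94). The summed intensity of 7 myeloid markers was 566, 503 and 380 on delta EGFP+ arrays and 652, 403 and 1494 on WT EGFP+ arrays, and it was 407 on the delta EGFP- and 361 on the WT EGFP- array. Csf1r was the brightest of the 7 on every WT EGFP+ array (8.36, 6.81 and 9.85). The markers went both ways. Mean levels of Lyz2 and Cd68 were 6.31 and 6.88 in delta EGFP+ and 5.81 and 6.17 in WT EGFP+ cells, while the other myeloid markers were lower in delta EGFP+. Their part in the results was not tested, and RMA values hold no zero that would mark a gene as absent. In sorted populations, fewer cells with a transcript and less transcript per cell cannot be told apart.

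Delta EGFP+ cells had less of the inducible HSP70 pair Hspa1a and Hspa1b and of the J-domain proteins Dnajb4 and Dnajb1 than WT EGFP+ cells, and more of the mitochondrial chaperonin subunit Hspd1. The Dnajb1 call was lost when any single EGFP+ array was left out. By main probe set, Hspa1a, Hspa1b, Dnajb1 and Dnajb4 fell, Hspd1 rose, and Hspa8, Hsph1, Hsp90aa1, Hspb1 and Hspe1 did not pass the test. Over all 25 probe sets 11 passed in either direction, against 12.7% of all probe sets (limma, Benjamini-Hochberg adjusted p under 0.05). Of these, 1 was higher, against 7.35% of all probe sets, and 10 were lower, against 5.39%. By main probe set, 4 of the 10 genes were lower against 6.02% of all genes, and 1 was higher against 10.4%. Because the genes were chosen with earlier results of these data known, these shares describe them and do not test for an excess. The median difference of the 25 was -0.21 and that of all probe sets -0.01 on the log2 scale. Arrays of the groups did not overlap for 10 of the 25 on the lower side, against 13.4% of all probe sets, and for 4 on the higher side, against 15.6%. Leaving out 1 EGFP+ array at a time left between 4 and 9 of the 25 past the threshold: 8, 5 and 6 without delta EGFP+ replicate 1, 2 and 3, and 4, 9 and 7 without WT EGFP+ replicate 1, 2 and 3.

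**Figure D1:**
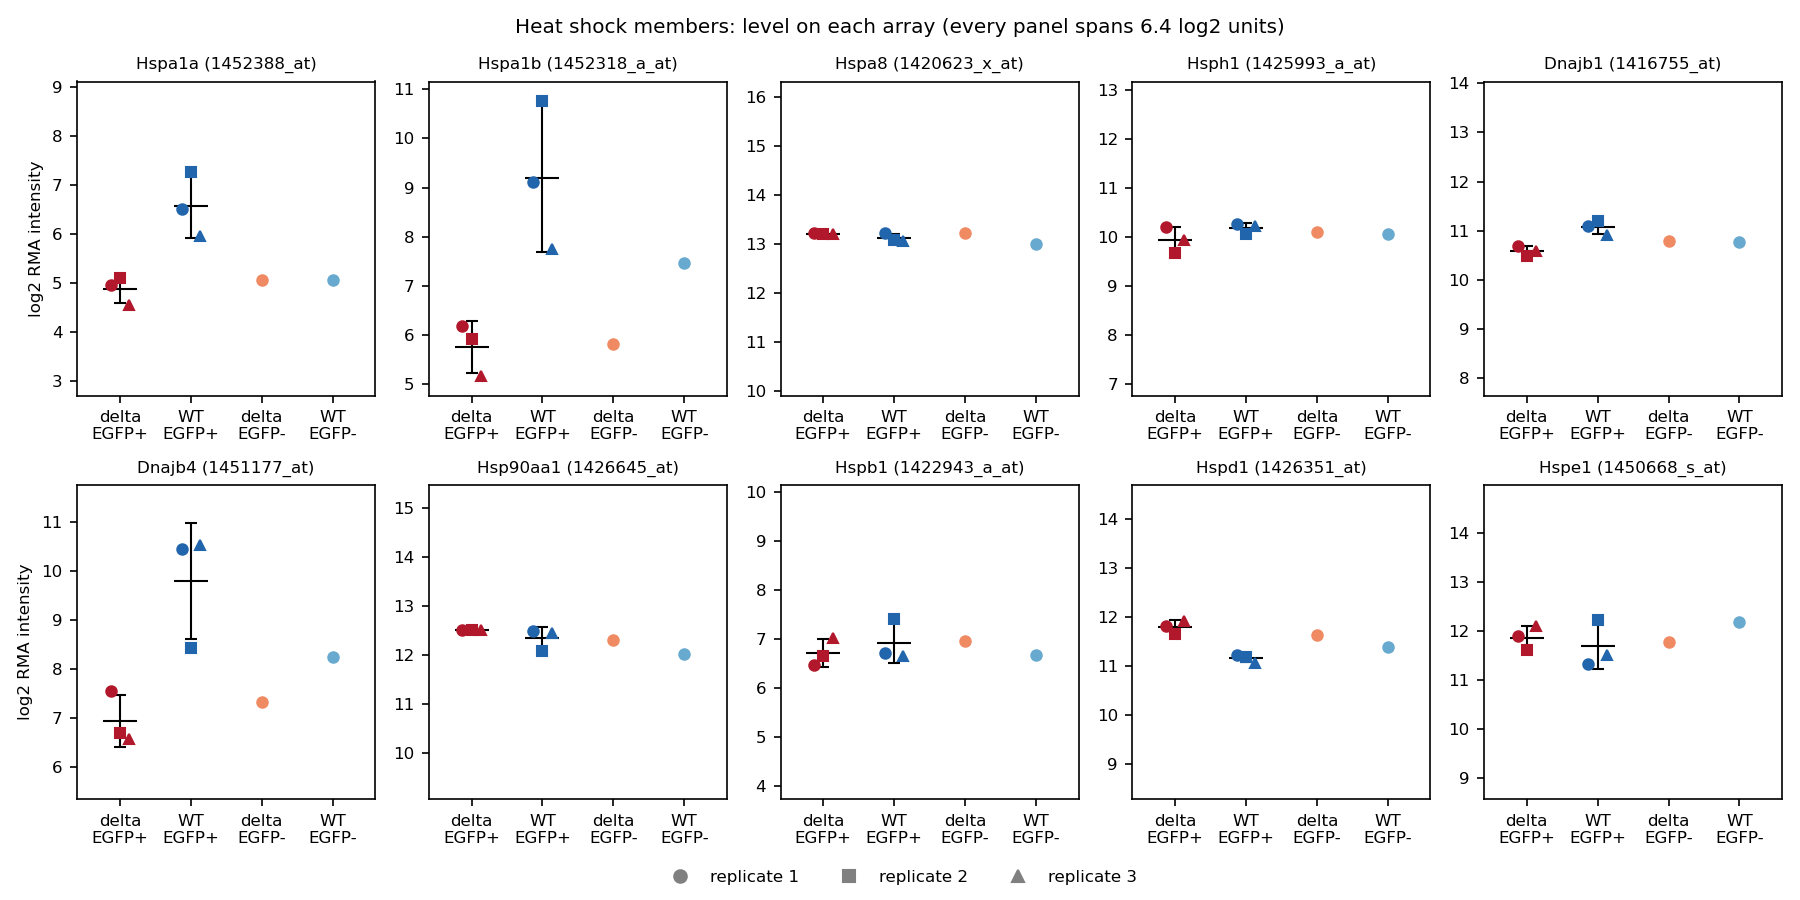
Log2 RMA intensity of the main probe set of each of the 10 genes on each array; columns are the 4 groups, marker shapes the replicates, and bars the mean ± SD of the groups with 3 arrays. All panels span the same range, so the distance between delta and WT EGFP+ arrays can be compared: it is widest for Hspa1b (-3.45), Dnajb4 (-2.85) and Hspa1a (-1.70), and Hspd1 is higher (0.64).

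Hspa1b encodes an HSP70 that is made on stress. Its main probe set (1452318_a_at) read 6.19, 5.90 and 5.17 on delta EGFP+ arrays, against 9.11, 10.75 and 7.74 on WT EGFP+ arrays, with 5.81 on the delta EGFP- and 7.47 on the WT EGFP- array. The WT EGFP+ arrays were all above the delta EGFP+ arrays, and their own spread (SD 1.51, n = 3) was wider than that of the delta EGFP+ arrays (SD 0.53, n = 3). The difference of -3.45 (SE 0.67, 95% interval -5.01 to -1.89) is 10.9-fold lower, with an adjusted p of 0.014, which became 0.0525 without WT EGFP+ replicate 1. The delta EGFP+ readings lie near the array medians, where RMA narrows differences, which limits the fold as a measure of the change. A second probe set, 1427127_x_at, read 6.34, 5.88 and 5.11 on delta EGFP+ arrays, against 9.10, 10.17 and 8.12 on WT EGFP+ arrays, and 5.49 and 7.14 on the delta EGFP- and WT EGFP- arrays. It ordered the arrays of each EGFP+ group as the first did, and its difference of -3.35 (SE 0.51, adjusted p = 0.0051) passed in every setting tried. The third, 1427126_at, differed by -3.04 (SE 0.62, adjusted p = 0.016), and its call was lost without delta EGFP+ replicate 2 or 3 or WT EGFP+ replicate 1 (adjusted p = 0.0587, 0.0534 and 0.0636).

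Hspa1a encodes a nearly identical HSP70 from the gene next to Hspa1b, so signal on either may include transcripts of the other. It read 4.96, 5.10 and 4.56 on delta EGFP+ arrays, against 6.51, 7.26 and 5.95 on WT EGFP+ arrays, 5.05 on the delta EGFP- array and 5.07 on the WT EGFP- array. As for Hspa1b, WT EGFP+ replicate 2 was the highest array and replicate 3 the lowest of its group, and the groups did not overlap. The difference was -1.70 (SE 0.31, 95% interval -2.43 to -0.98), 3.26-fold lower, with an adjusted p of 0.011 that stayed between 0.0054 and 0.046 over 14 alternatives. RMA compresses differences near background, and the delta EGFP+ and both EGFP- readings of Hspa1a lie below the array medians.

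Hspa8, the constitutive HSP70 of the cytosol, showed no such gap on its brightest probe set (1420623_x_at), which read 13.22, 13.21 and 13.21 on delta EGFP+ arrays, against 13.22, 13.07 and 13.06 on WT EGFP+ arrays, 13.22 on the delta EGFP- and 13.01 on the WT EGFP- array. Its difference was 0.10 (95% interval -0.14 to 0.34, adjusted p = 0.66), and those of 1455789_x_at (-0.02) and 1420622_a_at (-0.01) also missed the threshold (adjusted p = 0.97 each). The fourth Hspa8 probe set stands apart. It (1431182_at) read 8.55, 7.85 and 7.64 on delta EGFP+ arrays, against 9.26, 9.24 and 9.22 on WT EGFP+ arrays, with 8.75 on the delta EGFP- and 9.56 on the WT EGFP- array. This one fell by 1.23 (SE 0.22, adjusted p = 0.010) and passed in every setting tried. No source used here tells which Hspa8 transcripts each probe set detects.

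Differences in Hsph1 were small. Its main probe set (1425993_a_at) read 10.21, 9.67 and 9.93 on delta EGFP+ arrays, against 10.27, 10.06 and 10.23 on WT EGFP+ arrays, 10.10 on the delta EGFP- and 10.06 on the WT EGFP- array, a difference of -0.25 (SE 0.15, adjusted p = 0.39). The other, 1423566_a_at, read 8.91, 8.87 and 8.86 on delta EGFP+ arrays, against 9.25, 9.28 and 9.27 on WT EGFP+ arrays, and 9.09 and 8.86 on the delta EGFP- and WT EGFP- arrays. The arrays of each EGFP+ group lay close together, and the difference of -0.39 (SE 0.10) had an adjusted p of 0.039, which was lost under 9 of 14 alternatives and reached 0.111.

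Dnajb4, a J-domain protein that works with HSP70, had the second largest difference of the members. Its main probe set (1451177_at) read 7.54, 6.70 and 6.57 on delta EGFP+ arrays, against 10.44, 8.42 and 10.51 on WT EGFP+ arrays, 7.33 on the delta EGFP- array and 8.23 on the WT EGFP- array. Replicate 2 was about 2 log2 units below the other WT EGFP+ arrays and still above every delta EGFP+ array. The difference was -2.85 (SE 0.55, 95% interval -4.12 to -1.58), 7.23-fold lower, with an adjusted p of 0.013, which became 0.0556 without delta EGFP+ replicate 2 and 0.0557 without WT EGFP+ replicate 1. A dimmer Dnajb4 probe set (1431734_a_at) fell by 2.57 (SE 0.61, adjusted p = 0.031), with 6.77, 6.03 and 5.52 on delta EGFP+ arrays, against 9.27, 7.18 and 9.57 on WT EGFP+ arrays. Its adjusted p passed 0.05 under 7 of 14 alternatives and reached 0.114. The dimmest (1439524_at) differed by -0.25 (adjusted p = 0.71).

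Dnajb1, the main J-domain partner of inducible HSP70, was lower by a smaller amount. On 1416755_at it read 10.69, 10.48 and 10.58 on delta EGFP+ arrays, against 11.08, 11.20 and 10.92 on WT EGFP+ arrays, 10.78 on the delta EGFP- and 10.77 on the WT EGFP- array. The difference of -0.48 (SE 0.12, adjusted p = 0.038) did not pass when any single EGFP+ array was left out (adjusted p 0.0503 to 0.129). On 1416756_at it read 10.54, 10.47 and 10.06 on delta EGFP+ arrays, against 11.43, 10.92 and 11.23 on WT EGFP+ arrays, and 10.40 and 10.66 on the delta EGFP- and WT EGFP- arrays. That difference was -0.83 (SE 0.18, adjusted p = 0.021), with adjusted p between 0.0543 and 0.0808 without delta EGFP+ replicate 2 or 3 or WT EGFP+ replicate 1 or 3. On both probe sets the groups did not overlap.

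Hsp90aa1, the inducible cytosolic HSP90, read 12.52, 12.51 and 12.51 on delta EGFP+ arrays, against 12.50, 12.09 and 12.44 on WT EGFP+ arrays, 12.32 on the delta EGFP- and 12.01 on the WT EGFP- array. The delta EGFP+ arrays were nearly equal and WT EGFP+ replicate 2 was lowest, and the difference of 0.17 (95% interval -0.14 to 0.48) did not pass (adjusted p = 0.53). The other 4 Hsp90aa1 probe sets differed by 0.02 (1438902_a_at), 0.19 (1437497_a_at), -0.14 (1433251_at) and 0.32 (1441827_x_at), and none passed (smallest adjusted p = 0.12). Hspb1, the best known small heat shock protein, read 6.46, 6.64 and 7.02 on delta EGFP+ arrays, against 6.70, 7.41 and 6.65 on WT EGFP+ arrays, 6.95 on the delta EGFP- and 6.67 on the WT EGFP- array. The groups overlapped, and its differences of -0.21 (1422943_a_at) and -0.11 (1425964_x_at) had an adjusted p of 0.67 each.

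Hspd1, the barrel subunit of the mitochondrial chaperonin, was the member that rose, while its lid Hspe1 did not pass. Hspd1 read 11.82, 11.65 and 11.92 on delta EGFP+ arrays, against 11.22, 11.19 and 11.06 on WT EGFP+ arrays, 11.64 on the delta EGFP- array and 11.38 on the WT EGFP- array. All delta EGFP+ arrays were above all WT EGFP+ arrays, and both EGFP- arrays lay between them. The difference of 0.64 (SE 0.12, 95% interval 0.36 to 0.91) is 1.56-fold higher, with an adjusted p of 0.011 that passed under all 15 alternatives, with values from 0.0029 to 0.049. For Hspe1 the main probe set (1450668_s_at) read 11.89, 11.61 and 12.09 on delta EGFP+ arrays, against 11.33, 12.22 and 11.51 on WT EGFP+ arrays, 11.78 on the delta EGFP- and 12.18 on the WT EGFP- array. WT EGFP+ replicate 2 was the highest of these, the groups overlapped, and the difference of 0.18 did not pass (adjusted p = 0.74). The second Hspe1 probe set (1422579_at) read 10.46, 10.28 and 10.42 on delta EGFP+ arrays, against 10.02, 10.12 and 10.05 on WT EGFP+ arrays, and 10.47 and 10.16 on the delta EGFP- and WT EGFP- arrays. These groups did not overlap, but the difference of 0.33 (SE 0.11) had an adjusted p of 0.093.

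**Figure D2:**
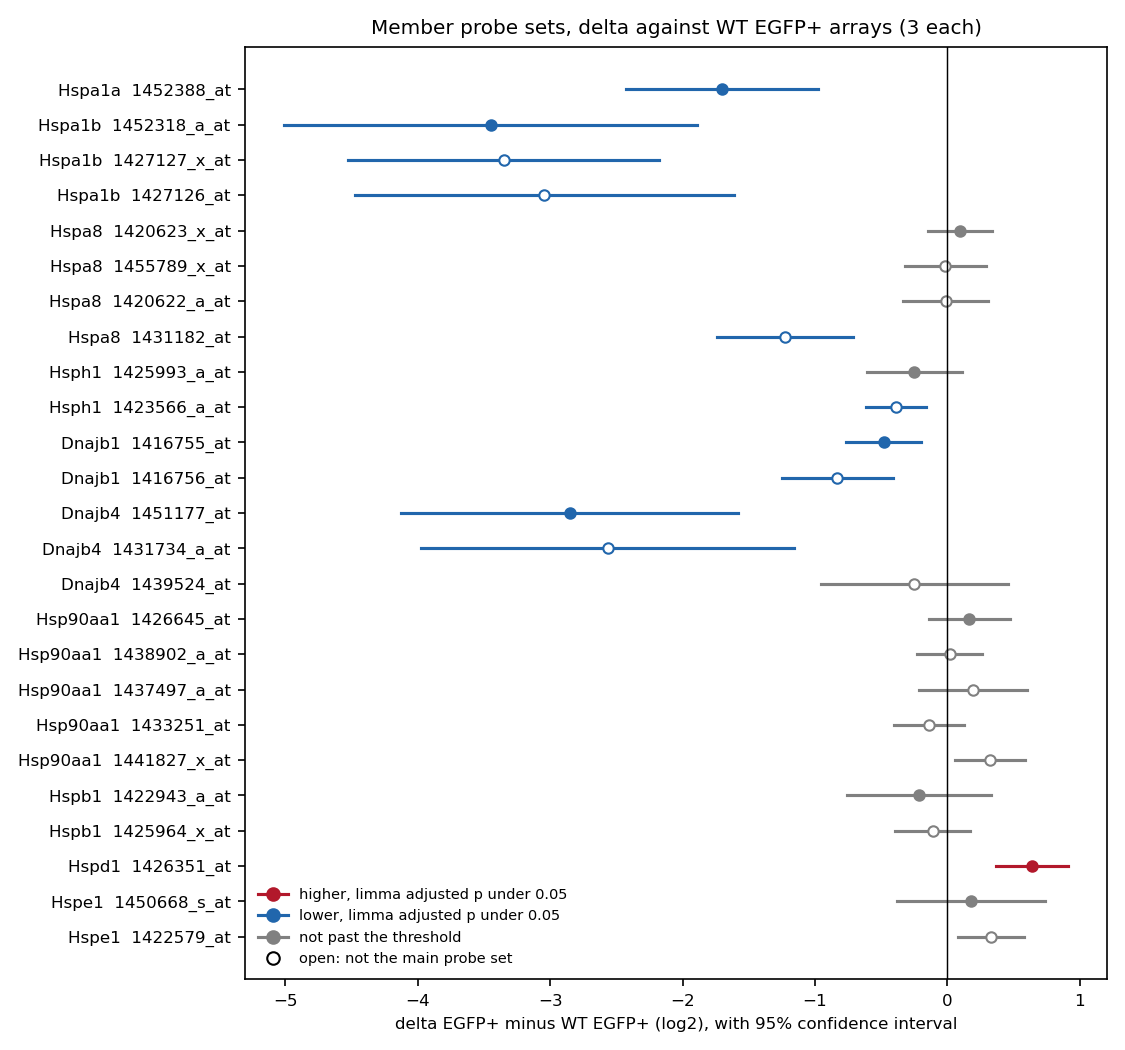
Difference between delta and WT EGFP+ arrays (log2) for all 25 probe sets, with 95% confidence intervals from limma; filled points are main probe sets, and colour marks the calls. The 10 lower calls are 3 probe sets of Hspa1b, 1 of Hspa1a, 1 of Hspa8, 1 of Hsph1, 2 of Dnajb1 and 2 of Dnajb4, and the higher call is Hspd1.

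The sample titles open with a number, and by its leading digits the arrays fall into 3 series, each holding the delta EGFP+ and WT EGFP+ arrays of the same replicate number; the labels do not say what the number stands for. Hspa1b (1452318_a_at) differed by -2.93, -4.85 and -2.57 in the series of replicates 1, 2 and 3. For Dnajb4 (1451177_at) the values were -2.90, -1.72 and -3.94, so the series with the widest Hspa1b difference had the narrowest Dnajb4 difference. Hspd1 differed by 0.60, 0.46 and 0.85.

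Hspa1b and Dnajb4 ordered the delta EGFP+ arrays alike, replicate 1 highest and replicate 3 lowest, but the WT EGFP+ arrays differently. Among WT EGFP+ arrays, replicate 2 was highest for Hspa1a and for all 3 Hspa1b probe sets, while it was lowest for both called Dnajb4 probe sets. Immediate-early genes such as Fos and Egr1 are transcribed within minutes of a stimulus, cell handling included. The mean log2 level of 23 of them was 10.15, 10.10 and 9.07 on delta EGFP+ arrays and 10.71, 9.49 and 10.90 on WT EGFP+ arrays, with 9.59 on the delta EGFP- and 9.93 on the WT EGFP- array. In the delta EGFP+ group the order of this mean was that of both Hspa1b and Dnajb4, though replicates 1 and 2 lay close. In the WT EGFP+ group it was that of Dnajb4 and the reverse of Hspa1b. Single genes did not all follow the mean. On delta EGFP+ arrays Fos read 11.78, 11.97 and 8.71 and Egr1 10.76, 10.42 and 10.99. Among WT EGFP+ arrays Fos and Egr1 had the order of the mean, while Egr2, Egr3 and Myc were highest on replicate 2. The part of such genes in the member differences was not tested. Of the 23, Ier3 alone was called higher, by 2.12 (SE 0.45, adjusted p = 0.019), where 10.4% of all genes were. Another 3 fell, against 6.02% of all genes, among them Klf2 by 1.38 (SE 0.14, adjusted p = 8e-04) and Btg2 by 1.34 (SE 0.16, adjusted p = 0.0016). The median of the 23 was -0.93. Without delta EGFP+ replicate 1, 2 and 3 the lower calls among the 23 were 2, 3 and 2, and the higher calls 0, 0 and 1. Without WT EGFP+ replicate 1, 2 and 3 the lower calls were 2, 10 and 2, and the higher calls 0, 3 and 1. Leaving out WT EGFP+ replicate 2 also raised the calls over all probe sets, in either direction, from 5734 to 7556. The other fits lowered them, to between 3355 and 4623.

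**Figure D3:**
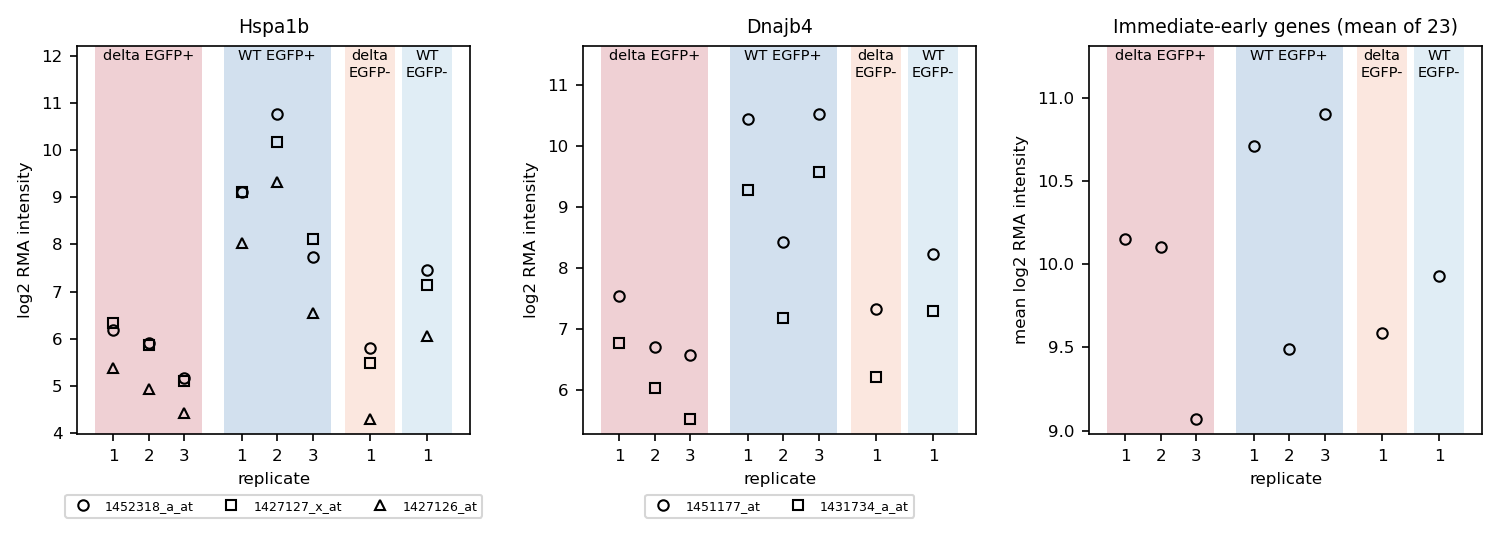
Log2 RMA intensity of the 3 Hspa1b probe sets, of the 2 brighter Dnajb4 probe sets, and the mean over 23 immediate-early genes, for each replicate of the 4 groups. Within WT EGFP+, replicate 2 is the top array for Hspa1b (10.75) and the bottom one for Dnajb4 (8.42) and the immediate-early mean (9.49).

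The level over all 8 arrays varied by an SD of at least 0.5 for the main probe sets of Hspa1a (0.93), Hspa1b (1.90) and Dnajb4 (1.54). For these, the genes with the smallest root mean square difference between gene-centred log2 levels over the 8 arrays were found among 1889 candidate genes with an SD of at least 0.5. Nearest to Hspa1a were Marchf3 (0.25), Rarg (0.29) and Irak2 (0.32). Gpr34 (0.61), Prg4 (0.76) and Cyp4f18 (0.82) were nearest to Hspa1b. The measure is not scaled by the SD, which was largest for Hspa1b, so its values do not rank likeness between the members. Jmy (0.28), Vps37b (0.38) and Slc35d1 (0.39) came closest to Dnajb4. The likeness describes these 8 arrays, on which group differences are shared by many genes.

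Within WT mice, EGFP+ cells were compared with the single EGFP- array, and none of the 25 probe sets passed, against 1.1% of all probe sets; 3 had an unadjusted limma p under 0.05, against 9.41% of all. Hspa1a differed by 1.51 (95% interval 0.48 to 2.53, adjusted p = 0.27), Hspa1b by 1.73 (95% interval -0.47 to 3.94, adjusted p = 0.66) and Dnajb4 by 1.56 (95% interval -0.23 to 3.36, adjusted p = 0.61), and every WT EGFP+ array lay above the WT EGFP- array for all 3, as for 25.3% of all probe sets. In the series of replicate 1, which also holds the EGFP- arrays, these differences were 1.44, 1.64 and 2.21. Without WT EGFP+ replicate 2 the Dnajb4 probe sets 1451177_at and 1431734_a_at passed, at 2.25 (adjusted p = 0.0219) and 2.13 (adjusted p = 0.0499). Hspd1 differed by -0.22 (adjusted p = 0.79).

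In delta mice, none of the 25 passed between EGFP+ and EGFP- cells, against 0.0755% of all probe sets, and 1 had an unadjusted limma p under 0.05, against 9.73% of all. Hspa1b differed by -0.06 (95% interval -2.26 to 2.15), Hspa1a by -0.18 (95% interval -1.21 to 0.84), Dnajb4 by -0.39 (95% interval -2.19 to 1.41) and Hspd1 by 0.16 (95% interval -0.23 to 0.54). These intervals are wide, since 1 array stands for the EGFP- cells and the spread was taken from the EGFP+ groups. The difference between the EGFP differences of the delta and WT alleles was -1.69 for Hspa1a (SE 0.62, 95% interval -3.13 to -0.24, adjusted p = 0.74), -1.79 for Hspa1b (SE 1.34, adjusted p = 0.93) and -1.95 for Dnajb4 (SE 1.09, adjusted p = 0.89). None of the 25 passed that interaction test, against 0.04% of all probe sets, and 2 had an unadjusted limma p under 0.05, against 6.14% of all.

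The 2 EGFP- arrays, 1 per allele, were compared by their values alone, and the difference between them was not tested. The delta EGFP- array was below the WT EGFP- array for 12 of the 25 probe sets (48%), as it was for 51.7% of all probe sets. The largest of these gaps were those of Hspa1b, -1.66 on 1452318_a_at, -1.66 on 1427127_x_at and -1.75 on 1427126_at, and Dnajb4 followed at -0.90 and -1.08. Hspa1a was level (-0.01), and Hspd1 was 0.26 higher on the delta EGFP- array.

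Other genes of the chaperone network were read from lists, each gene by 1 probe set. The lists, too, were chosen with earlier results of these data known. With the immediate-early genes these lists held 149 measured genes, of which 39 passed in delta against WT EGFP+ cells, where 16.5% of all genes did. Over all genes, 10.4% were called higher and 6.02% lower. Of 22 genes of the endoplasmic reticulum chaperones and unfolded protein response, 8 rose and 1 fell (median 0.34, against 0.02 over all genes). Sdf2l1, a stress-induced partner of ER chaperones, read 9.99, 10.09 and 10.28 on delta EGFP+ arrays, against 8.02, 7.95 and 8.37 on WT EGFP+ arrays (difference 2.01, SE 0.15, adjusted p = 0.00025). Pdia6, a protein disulfide isomerase, rose by 1.04 (SE 0.12, adjusted p = 0.0013), though its other probe set differed by -0.20. Herpud1, of ER-associated degradation, fell by 0.61 (SE 0.16, adjusted p = 0.041). Of 14 other mitochondrial chaperones and proteases, the compartment of Hspd1, 4 rose and none fell (median 0.31), among them Clpb by 1.16 (SE 0.15, adjusted p = 0.0025) and Dnajc15 by 0.74 (SE 0.18, adjusted p = 0.031). Of 15 genes of TRiC, the cytosolic chaperonin, and of prefoldin, which hands it clients, 4 rose and none fell (median 0.22), led by Tcp1 (0.67, SE 0.11, adjusted p = 0.0066) and Pfdn1 (0.66, SE 0.12, adjusted p = 0.012). Without delta EGFP+ replicate 1, 2 or 3 the ER list had 5, 4 and 5 higher calls, the mitochondrial list 2, 2 and 3, and the TRiC and prefoldin list 2, 4 and 3. Without WT EGFP+ replicate 1, 2 or 3 these counts were 4, 8 and 6 for the ER list, 2, 5 and 2 for the mitochondrial list, and 2, 6 and 3 for TRiC and prefoldin. The lower calls of the ER list were 1, 0 and 0, and 0, 4 and 0, in the same fits. Calls over all probe sets, 5734 with all arrays, were 3356, 3716 and 4623, and 3355, 7556 and 3873.

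The co-chaperones of HSP70 and HSP90 moved both ways. Of 14 measured co-chaperones of HSP90, with no HSP90 gene among them, 5 rose and 2 fell (median 0.27). Fkbp5, an immunophilin of HSP90-bound steroid receptors, read 10.32, 10.85 and 10.66 on delta EGFP+ arrays, against 8.88, 8.94 and 8.82 on WT EGFP+ arrays (difference 1.73, SE 0.15, adjusted p = 0.00045; its other 2 probe sets ranged from 0.03 to 1.64). Ahsa2, related to the HSP90 ATPase activator, rose by 0.66 (adjusted p = 0.021), and Unc45a, a myosin chaperone, and Tsc1, which slows the HSP90 cycle, fell by 0.78 (adjusted p = 0.015) and 0.62 (adjusted p = 0.019). The other 2 Tsc1 probe sets ranged from -0.76 to -0.07, and the other 3 of Unc45a from -0.71 to -0.32. Among 10 genes of HSP70 nucleotide exchange and client handling, 3 rose and 1 fell (median 0.30). Bag3, an exchange factor known as a heat shock factor target, fell, with 7.09, 7.01 and 6.92 on delta EGFP+ arrays, against 8.01, 7.76 and 8.25 on WT EGFP+ arrays (difference -1.0, SE 0.15, adjusted p = 0.0043). Among WT EGFP+ arrays Bag3 was lowest on replicate 2 and highest on replicate 3, the reverse of Hspa1a and Hspa1b. Bag2, a relative of Bag3, rose by 1.31 (SE 0.17, adjusted p = 0.0026), and Hikeshi, which carries HSP70 into the nucleus, rose by 0.62 (SE 0.12, adjusted p = 0.013). The higher calls of the HSP90 list were 2, 3 and 4 without delta EGFP+ replicate 1, 2 and 3, and 2, 4 and 4 without WT EGFP+ replicate 1, 2 and 3. Its lower calls were 1, 0 and 3, and 0, 2 and 1, in the same fits. For the HSP70 exchange list the higher calls were 1, 2 and 3, and 1, 3 and 1, while Bag3 stayed its 1 lower call in each of these fits. Calls over all probe sets were 3356, 3716 and 4623, and 3355, 7556 and 3873, against 5734 with all arrays.

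Of 28 other J-domain proteins, 3 rose and 2 fell (median -0.08), shares near the 10.4% and 6.02% over all genes. Dnaja1, an abundant cytosolic partner of Hspa8, read 11.31, 11.25 and 11.13 on delta EGFP+ arrays, against 11.99, 12.05 and 11.84 on WT EGFP+ arrays (difference -0.73, SE 0.11, adjusted p = 0.0054). Its other 2 probe sets differed by -0.78 and -0.66. Dnajb2 fell by 1.25 (SE 0.17, adjusted p = 0.0030), while Dnajc18 rose by 0.90 (SE 0.11, adjusted p = 0.0018; its other 2 probe sets, -0.14 and 0.00) and Dnajc2, of the ribosome, rose by 0.54 (SE 0.12, adjusted p = 0.022; its other 3 probe sets, -0.02 to 0.65). Hspa14, a ribosome-bound HSP70, was the 1 call among 8 other cytosolic HSP70 and HSP110 genes and rose by 0.62 (SE 0.13, adjusted p = 0.019). The higher calls of the J-domain list ranged from 1 to 4 with an EGFP+ array left out, and the call of Hspa14 was lost without delta EGFP+ replicate 1 or 3 or WT EGFP+ replicate 1 or 3. Calls over all probe sets ranged from 3355 to 7556 in these fits, against 5734 with all arrays. Among 6 heat shock factors and other targets, Dedd2 fell by 0.85 (SE 0.13, adjusted p = 0.0048). None of 9 small heat shock proteins passed, the nearest being Hspb6 (0.56, adjusted p = 0.081) and Hspb3 (0.21, adjusted p = 0.42). In the other 3 tested comparisons (WT EGFP+ against EGFP-, delta EGFP+ against EGFP-, and the interaction) limma called none of the 149 genes, with 9, 9 and 8 at an unadjusted p under 0.05, and called 1.5%, 0.0879% and 0.066% of all genes.

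**Figure D4:**
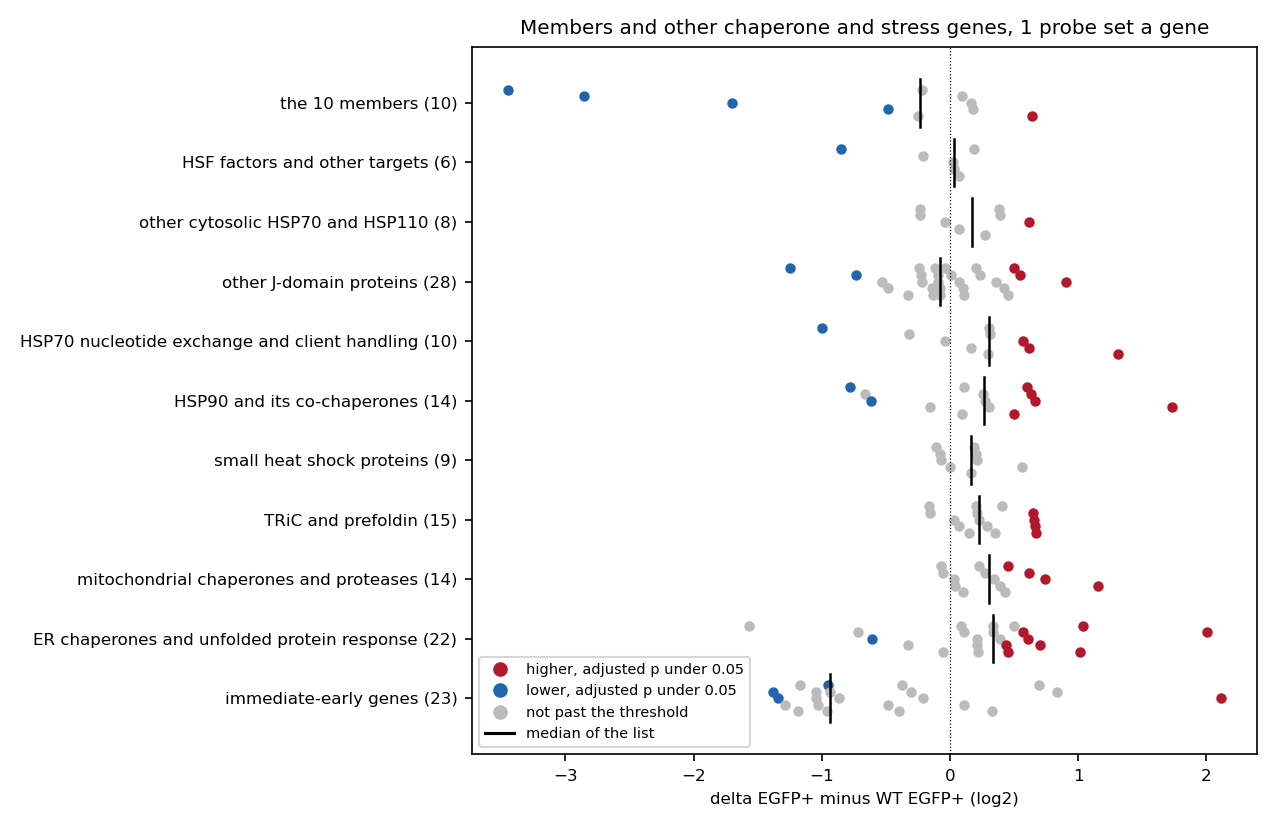
Difference between delta and WT EGFP+ arrays (log2) for the main probe set of the 10 genes and of each other listed chaperone or stress gene; every point is a gene, black bars are list medians, and colour marks the calls. The 3 lowest of the 10 genes (-3.45, -2.85 and -1.70) lie below every gene of the other chaperone lists, and the ER list has the most higher calls (8 of 22).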

How the data were processed

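The authors deposited 1 linear intensity per probe set and array, made with RMA per the submitters' processing notes; RNA was extracted with RNEasy and biotin-labelled, per the labels' protocols. RMA subtracts background, sets all arrays to 1 distribution and summarises probes, and it narrows differences near background. No source used here gives its version. Of 45101 probe sets 64 controls were left out. Log2 was taken without a pseudocount, and a mean per group was fitted to all 8 arrays with limma 3.58.1 in R 4.3.3 (4 residual and 3.72 prior degrees of freedom), two-sided, with Benjamini-Hochberg adjustment over 45037 probe sets and a threshold of 0.05. The single EGFP- arrays take their spread from the EGFP+ groups. With 3 arrays in either group the smallest exact permutation p would be 0.1. The fit was tested on simulated arrays of independent normal noise, with the same spread in all groups and no series effect. That check does not cover unequal spread or effects shared by arrays. The members and lists were chosen with earlier results of these data known. Of 190 listed genes 178 were measured; the others are not analysed here. In each list up to 2 genes called highest and 2 called lowest are named, or the 2 of smallest p. Probe sets ending in x_at or s_at can detect related genes. Replicates are numbered in accession order. Leave-one-out fits, normalization, pseudocount, filter, variance model, array weights, block and probe set choice were varied.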

Additional observations from a re-analysis of the deposited data

How the results depend on the processing

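The calls of Hspa1a, Hspd1, Hspa1b on 1427127_x_at and Hspa8 on 1431182_at were kept under all alternatives run for them. The count of member probe sets past the threshold in delta against WT EGFP+ cells, 11 with all arrays, ranged from 4 to 9 when 1 EGFP+ array was left out, and that in WT EGFP+ against EGFP- cells from 0 to 2; over all probe sets the count of 5734 ranged from 3355 without WT EGFP+ replicate 1 to 7556 without WT EGFP+ replicate 2, the array with the lowest limma array weight (0.57). Each of the differences below that changed sign was past no threshold in either direction, and the cause was not tested. For delta against WT EGFP+, Hspa8 1420623_x_at became -0.0149 with the median over probe sets. Hspa8 1455789_x_at ranged from -0.0883 to 0.0761 with an array left out and became 0.0152 with quantile normalization and 0.0063 with centring. Hspa8 1420622_a_at ranged from -0.1323 to 0.0717 with an array left out and became 0.0069 with centring and 0.0331 with array weights. Hsp90aa1 1438902_a_at ranged from -0.0186 to 0.0633 with an array left out and became -0.0222 with quantile normalization. With an array left out, Hspb1 1422943_a_at ranged from -0.3732 to 0.0304 (without WT EGFP+ replicate 2), and Hspe1 1450668_s_at from -0.002 (without WT EGFP+ replicate 1) to 0.4448. For WT EGFP+ against EGFP-, Hspa8 became -0.0907 with the median over probe sets. For delta EGFP+ against EGFP-, Hspa1b ranged from -0.2734 to 0.2359 with an array left out and became 0.1157 with the block and 0.2395 with the median. There Hspa8 became 0.0343 with quantile normalization and 0.0507 with the block, Hsph1 0.0129 and Dnajb4 1451177_at 0.2339 with the block. Dnajb4 1431734_a_at ranged from -0.4289 to 0.1942 and Hspe1 from -0.0303 to 0.2126 with an array left out, and the block gave 0.5305 and -0.0815. For the interaction, Hspa8 became 0.0092 with the median.

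Without 1 EGFP+ array the calls of Hspa14, Dnajc2, Hikeshi, Ahsa2, Unc45a, Tsc1, Dnajc15, Herpud1 and Ier3 were lost in at least 1 fit, and the higher calls of the ER list ranged from 4 to 8 and those of the mitochondrial list from 2 to 5. With the pseudocount of 16 Hspe1 1422579_at passed (adjusted p = 0.0381). Deviations from the group means correlated at 0.1206, 0.0457 and -0.1018 between the EGFP+ arrays of replicate 1, 2 and 3. Between delta and WT EGFP+ arrays of different series they ranged from -0.1534 to 0.093. With 3 arrays a group these values cannot decide whether arrays are paired by the title number series. With these series as a block the calls of Hsph1 1423566_a_at, Dnajb1 1416755_at, Tsc1, Dnajc15 and Ier3 were lost (adjusted p = 0.0866, 0.0797, 0.0518, 0.0596 and 0.0513).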
